A study of Mus musculus with 4 samples.

Results

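The genes described here are 10 members of the insulin-like growth factor (IGF) system in luminal cells of the mouse mammary gland. They are the receptors *Igf1r* and *Insr*, the ligands *Igf1* and *Igf2*, and the binding proteins *Igfbp2*, *Igfbp3*, *Igfbp4*, *Igfbp5*, *Igfbp6* and *Igfbp7*. They were chosen by gene symbol, and all 10 were found among the 52636 genes of the deposited table. IGF1 and IGF2 are secreted growth factors that bind the receptor tyrosine kinase IGF1R, and the closely related insulin receptor INSR binds insulin and, in one of its isoforms, IGF2. Both receptors signal through IRS adaptors to PI3K and AKT. IGF-binding proteins hold the ligands outside the cell and either block them or carry them to the receptor, while IGFBP7 binds IGFs weakly. In the mammary gland, IGF1 from the stroma is known to act on the epithelium during ductal growth, and IGFBP5 is known for its rise at involution.

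The cells were luminal epithelial cells sorted by flow cytometry from thoracic and abdominal glands of C57BL/6N mice aged 6 weeks. The genotypes compared were *ErbB3+/+;MMTV-Cre* (WT) and *ErbB3V943R/V943R;MMTV-Cre* (mutant), so the control mice carried the Cre transgene too. ERBB3 is a receptor with little kinase activity of its own that activates its partner ERBB2, and the V943R substitution lies in the surface it uses to do so. The mutant allele is conditional and is expressed after recombination by Cre, which the MMTV promoter drives mainly in mammary epithelium. For each genotype the cells of 3 mice were combined before sorting, and this pool was sequenced as 2 droplet libraries, called A and B here without any pairing between genotypes. No test between genotypes was therefore made, and spread between libraries is the spread of 2 samplings of 1 pool. The gene-level table does not separate the alleles of *Erbb3*, whose own level was 63.4 and 70.7 CPM (counts per 1000000 UMIs) in progenitor cells of the WT libraries and 38.2 and 35.5 CPM in those of the mutant libraries.

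The libraries held between 6849 and 9627 cells and between 30019745 and 38009351 unique molecular identifiers (UMIs, each a tag on the 3′ end of 1 captured mRNA), with medians of 3154 to 4027 UMIs per cell. The deposited labels divided the cells into luminal progenitors (LP, clusters 1 and 2), luminal intermediate cells (LI, cluster 3), mature luminal cells (ML, clusters 4 through 11) and 2 rare clusters, 12 and 13. The summed level of 6 luminal progenitor markers ran from 4869 to 5593 CPM in LP against 80.5 to 85.3 in ML. That of 6 mature luminal markers ran from 7523 to 8130 CPM in ML against 886 to 965 in LP. The paper named LP by *Kit* and ML by *Prlr* in these same cells, and both genes are on these lists. The marker levels therefore describe the classes and are no check of the labels. A level here is the CPM of UMIs summed over the cells of a class. Since a UMI tags a molecule once whatever its length, no correction for length was made, and levels are compared between cells for 1 gene at a time. All intervals are 95% intervals for counting error only. Among the cell barcodes, 511 (1.60%) were seen in more than 1 library.

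In the luminal clusters 1 to 11, 4 of the 10 genes reached 50 UMIs in each genotype: *Igf1r*, *Insr*, *Igfbp5* and *Igfbp7*. Of these, 3 had their highest luminal level in LP, an intermediate level in LI and a level in ML that was between 34.2-fold and 107-fold lower than in LP. Of the 3 classes LI had the most UMIs per cell, with WT medians of 5620 against 2018 in LP and 3508 in ML. The mutant medians were 6849.5, 2067 and 4069.5. Doublets were not called, and the part of depth or doublets in the intermediate level was not tested. *Insr* had UMIs in all 3 classes, and its level was lowest in ML. The cells set beside these classes as background were too few to separate its share of cells from theirs. The other binding proteins and the ligands were near the limit of detection in luminal cells, and *Igfbp6*, *Igfbp4* and *Igf1* had their highest level in the few cells with fibroblast or endothelial markers of cluster 12, as did *Igfbp7*. No member with at least 50 UMIs differed between genotypes by 1.5-fold or more in LP, LI, ML or cluster 11.

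**Figure D1:**
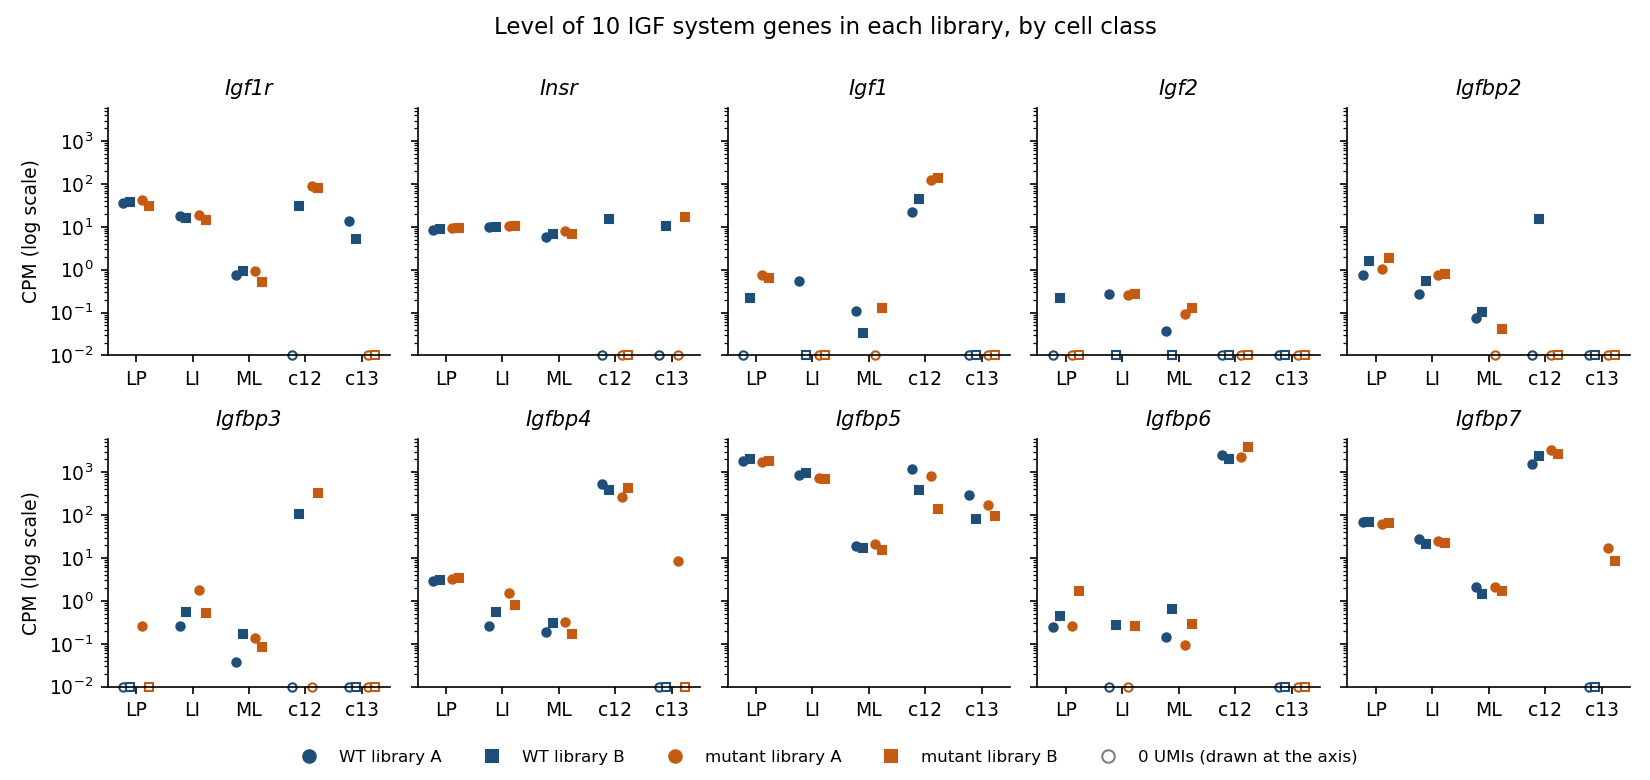
Level of each of the 10 genes (CPM, log scale) in LP, LI, ML and the rare clusters 12 (c12) and 13 (c13), with 1 point per library and open points for libraries with 0 UMIs. *Igf1r*, *Igfbp5* and *Igfbp7* step down from LP to LI to ML in all 4 libraries, *Insr* stays between 5.86 and 10.6 CPM in these classes, and *Igfbp6* stands at 2028 CPM or more in the libraries of cluster 12 and at 1.69 CPM or less in those of LP.

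*Igf1r*, *Igfbp5* and *Igfbp7* lie on 3 different chromosomes. In GRCm38 with the GENCODE M21 annotation, *Igf1r* spans chr7:67952827-68233668 on the plus strand, *Igfbp5* chr1:72857932-72874884 on the minus strand and *Igfbp7* chr5:77349240-77408041 on the minus strand. Because these 3 genes shared a pattern over the luminal classes, their promoter windows are shown, each from 250 bases before to 50 bases after the RefSeq start on GRCm38.p6 (chr7:67952007-67952306, plus strand, for *Igf1r*; chr1:72874816-72875115, minus strand, for *Igfbp5*; chr5:77407996-77408295, minus strand, for *Igfbp7*). Capitals mark GGGCGG or its reverse complement. The TATA box letters TATAAA were also searched on both strands, as were the CAAT box letters CCAAT and the E-box letters CACGTG, and none of these was in the 3 windows.
Igf1r: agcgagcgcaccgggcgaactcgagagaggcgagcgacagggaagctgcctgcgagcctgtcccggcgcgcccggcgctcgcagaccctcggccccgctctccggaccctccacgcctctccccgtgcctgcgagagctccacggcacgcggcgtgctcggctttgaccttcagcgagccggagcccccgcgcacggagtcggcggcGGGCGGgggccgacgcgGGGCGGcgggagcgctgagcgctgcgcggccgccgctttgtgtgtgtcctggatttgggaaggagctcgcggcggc
Igfbp5: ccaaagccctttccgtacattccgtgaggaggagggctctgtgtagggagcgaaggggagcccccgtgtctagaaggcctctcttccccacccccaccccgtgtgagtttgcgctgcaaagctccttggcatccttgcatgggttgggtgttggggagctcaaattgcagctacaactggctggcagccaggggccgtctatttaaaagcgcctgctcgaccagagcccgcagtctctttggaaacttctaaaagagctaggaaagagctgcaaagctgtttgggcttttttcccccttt
Igfbp7: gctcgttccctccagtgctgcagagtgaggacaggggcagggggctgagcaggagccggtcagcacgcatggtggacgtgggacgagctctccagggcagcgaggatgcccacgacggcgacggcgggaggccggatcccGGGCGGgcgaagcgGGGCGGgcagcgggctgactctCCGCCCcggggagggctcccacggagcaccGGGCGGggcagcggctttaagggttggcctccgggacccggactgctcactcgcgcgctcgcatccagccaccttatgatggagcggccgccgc
GGGCGG was present 2 times in the *Igf1r* window and 4 times in the *Igfbp7* window, and it was not among the letters of the *Igfbp5* window. Of 32851 RefSeq promoter windows of this length, 35.7% held GGGCGG. The TATA box letters were in 13.6% of them, the CAAT box letters in 37.4% and the E-box letters in 7.15%. The *Igf1r* and *Igfbp7* windows held 48 and 33 CpG dinucleotides and the *Igfbp5* window 10, against a median of 7 over all windows. A RefSeq window was found for 9 of the 10 members, and *Insr* had none.

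*Igf1r* encodes the IGF1 receptor. In LP it stood at 36.2 and 37.9 CPM in WT libraries A and B and at 41.0 and 30.7 CPM in mutant libraries A and B. In LI the values were 17.5 and 16.2 CPM in WT and 18.3 and 14.6 CPM in the mutant. In ML they were 0.737 and 0.945 CPM in WT and 0.912 and 0.506 CPM in the mutant. The 3 classes did not overlap in any of these values. The LP level was 43.9-fold the ML level in WT (log2 ratio 5.46, interval 5.01 to 5.92, from 316 and 48 UMIs) and 50.5-fold in the mutant (5.66, 5.13 to 6.23, from 307 and 32 UMIs). It was 2.19-fold the LI level in WT and 2.15-fold in the mutant. LP held 64.1% of all *Igf1r* UMIs of WT cells and 64.9% of those of mutant cells.

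*Insr*, the insulin receptor gene (chr8:3122061-3279617, minus strand), had the flattest pattern of the 4 detected members. In LP it stood at 8.42 and 8.92 CPM in WT and at 9.36 and 9.52 CPM in the mutant. In LI it stood at 9.83 and 9.63 CPM in WT and at 10.5 and 10.6 CPM in the mutant. In ML it stood at 5.86 and 6.85 CPM in WT and at 7.84 and 6.62 CPM in the mutant. The order was LI, LP, ML in each library, but LI and LP differed by less than counting error (log2 ratio of LP over LI −0.16 in both genotypes, with intervals of −0.65 to 0.32 and −0.62 to 0.30). The LP level was 1.36-fold the ML level in WT (log2 ratio 0.45, 0.07 to 0.81) and 1.31-fold in the mutant (0.39, 0.02 to 0.74), under the 1.5-fold used here as a threshold. The LI level was 1.53-fold the ML level in WT (log2 ratio 0.61, 0.22 to 0.98) and 1.47-fold in the mutant (0.55, 0.18 to 0.91). For LP over ML, the median of all genes with at least 50 UMIs was itself at a log2 ratio of 0.16 in WT and 0.20 in the mutant. ML, as the largest class, held 70.8% of the *Insr* UMIs of WT cells and 66.5% of those of mutant cells.

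The ligands were barely detected in sorted luminal cells. *Igf1* (chr10:87858265-87937042) had 7 UMIs in 18512 WT and 9 UMIs in 13687 mutant luminal cells, and *Igf2* (chr7:142650766-142666816) had 3 and 7. These are levels of 0.0963 and 0.145 CPM for *Igf1* and of 0.0413 and 0.113 CPM for *Igf2*. *Igf2* shares its strand over nearly its whole length with the annotated gene *Gm49394*, so even these few UMIs cannot be placed between the pair with certainty. With so few UMIs, the classes were not ordered for *Igf2*. For *Igf1*, 6 UMIs in mutant LP against 3 in mutant ML gave a log2 ratio of 3.40 (1.17 to 6.02), whereas 1 and 4 UMIs in WT gave 0.74 (−4.89 to 4.07). The insulin genes *Ins1* and *Ins2*, which encode further ligands of INSR, had no UMI in the luminal cells of either genotype.

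*Igfbp5* was the binding protein with by far the most UMIs in luminal cells, 24338 in WT and 22028 in the mutant. It was higher in LP than in ML by 107-fold in WT (log2 ratio 6.74, 6.65 to 6.83) and by 97.6-fold in the mutant (6.61, 6.51 to 6.71). In LP it stood at 1860.1 and 1999 CPM in WT and at 1730.4 and 1860.5 CPM in the mutant. In LI it stood at 883 and 967 CPM in WT and at 722 and 707 CPM in the mutant. In ML it stood at 19.4 and 16.9 CPM in WT and at 21.7 and 15.5 CPM in the mutant. LP lay above LI and LI above ML in every library. The LP level was 2.09-fold the LI level in WT and 2.52-fold in the mutant. LP held 67.4% and LI 28.0% of the *Igfbp5* UMIs of WT cells, against 70.8% and 25.1% in the mutant.

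*Igfbp7* encodes a secreted protein also known from blood vessel walls. In LP it stood at 68.6 and 68.0 CPM in WT and at 62.3 and 64.9 CPM in the mutant. In LI it stood at 27.1 and 21.5 CPM in WT and at 24.3 and 22.5 CPM in the mutant. In ML it stood at 2.10 and 1.45 CPM in WT and at 2.05 and 1.69 CPM in the mutant. The 3 classes again did not overlap, with LP 38.8-fold above ML in WT (log2 ratio 5.28, 4.97 to 5.60) and 34.2-fold in the mutant (5.10, 4.77 to 5.44). The last 85 bases of *Igfbp7* overlap those of *Polr2b* on the other strand, and whether the counting used strand is not given in the sources used here. *Polr2b* itself ran only from 25.8 to 29.6 CPM in LP and from 18.8 to 22.0 CPM in ML.

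Over all genes with at least 50 UMIs in LP or ML, 24.8% were called higher and 16.1% lower in LP in WT, and 26.3% higher and 15.7% lower in the mutant. A gene was called when its CPM summed over both libraries differed by 1.5-fold or more and each library alone had the same direction, whatever its size. Among the members 4 reached 50 UMIs, and *Igf1r*, *Igfbp5* and *Igfbp7* were called higher in LP and none lower, in WT and in the mutant. The classes were drawn by the authors from the expression values of these same cells, so the differences between classes are descriptions and not tests.

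The remaining binding proteins were low in luminal cells. *Igfbp4* (chr11:99041244-99054392) stood at 2.97 and 3.12 CPM in WT LP and at 3.29 and 3.38 CPM in mutant LP, from 26 and 29 UMIs, and at 0.169 to 0.319 CPM in ML. *Igfbp2* (chr1:72824503-72852474) stood at 0.743 and 1.56 CPM in WT LP and at 1.01 and 1.90 CPM in mutant LP, from 10 and 13 UMIs, and at 0 to 0.101 CPM in ML. Both were above their ML level in the LP cells of each library, from too few UMIs for the rule. *Igfbp2* and *Igfbp5* are neighbours on chromosome 1, with 5457 bases between their 3′ ends. *Igfbp3* (chr11:7206086-7213923) had 0 UMIs in WT LP, where 3 UMIs would be 0.352 CPM, and 1 UMI in mutant LP. *Igfbp6* (chr15:102144362-102149511) had 3 and 9 UMIs in LP.

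Free RNA in the droplets also gives UMIs of a gene in cells that do not express it, so the ML values were set beside those of luminal progenitor markers. The ML level was 0.937% (WT) and 1.02% (mutant) of the LP level for *Igfbp5*, 2.28% and 1.98% for *Igf1r*, and 2.58% and 2.92% for *Igfbp7*. For the milk protein genes *Csn3* and *Ltf* the WT ML level was 0.793% and 0.819% of the LP level, for *Kit* 1.22%, for *Aldh1a3* 1.27%, for *Cd14* 2.77% and for *Elf5* 6.23%. The 3 members thus lay within the range of markers that define LP. The cells of cluster 13 carried general immune markers at a summed 15286 to 21013 CPM, but also mature luminal markers at 1684 to 3463 CPM. In cells thinned to 1000 UMIs, *Igfbp5* was seen in 1.70% of WT ML cells (1.49% to 1.93%) and in 4.82% of the cells of WT cluster 13 (1.33% to 11.9%), whose medians before thinning were 3508 and 1899 UMIs. The share in ML lay within the interval of cluster 13, which rests on 4 of 83 cells, so it was not read as expression in ML. For *Insr* the thinned share was 0.949% in mutant LP and 0.797% in mutant ML against 1.30% in mutant cluster 13 (1 of 77 cells, 0.0329% to 7.02%). Cluster 13 holds too few cells to separate these shares, and whether its cells express *Insr* themselves was not tested. By level, *Insr* stood at 6.38 CPM in WT ML and at 6.99 CPM over all WT cells. *Igfbp5* stood at 18.1 CPM in WT ML and at 335 CPM over all WT cells. The part of free RNA in the *Insr* level was not tested. For *Igf1r* the thinned share was 3.56% in WT LP (2.94% to 4.26%) against 1 of 83 cells in WT cluster 13, and 3.76% in mutant LP against 0 of 77 cells. Here too cluster 13 holds too few cells to separate the shares. For *Igfbp7* it was 7.02% in WT LP against 0 of 83 cells (0% to 4.35%), and 6.20% in mutant LP against 2 of 77 cells (0.316% to 9.07%).

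**Figure D2:**
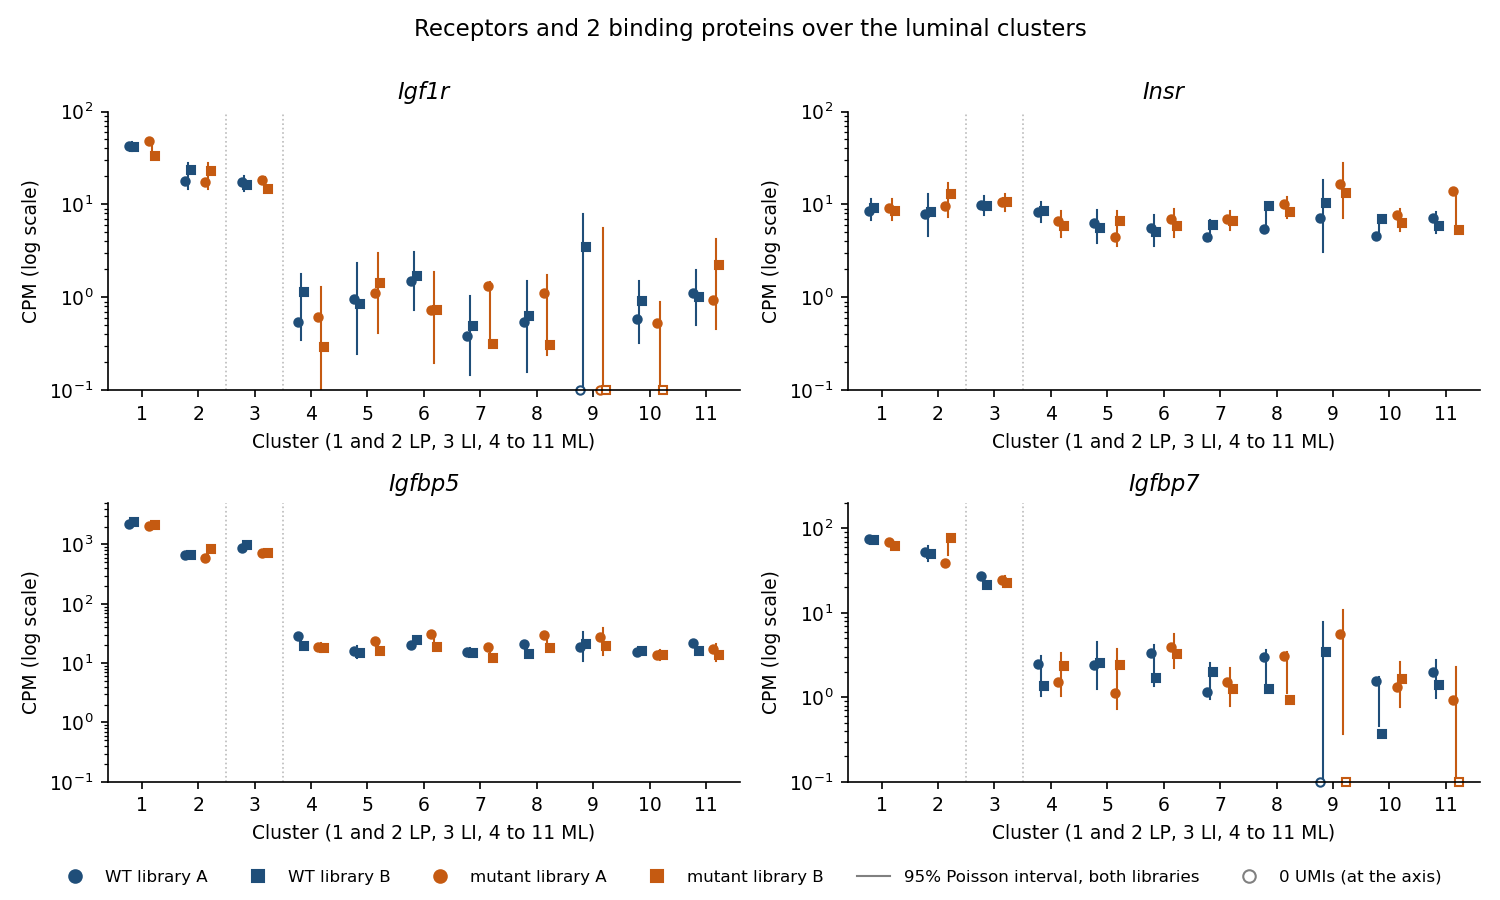
Level (CPM, log scale) of *Igf1r*, *Insr*, *Igfbp5* and *Igfbp7* in each luminal cluster, with 1 point per library and lines for the 95% Poisson interval of both libraries of a genotype. *Igfbp5* runs from 594 to 2368 CPM over the LP clusters and from 12.3 to 31.2 CPM over clusters 4 to 11, and *Insr* stays between 4.46 and 16.7 CPM over clusters 4 to 11.

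Within ML, 3 of the members stayed low in each cluster. Over the 8 ML clusters and 4 libraries, *Igfbp5* ranged from 12.3 to 31.2 CPM, *Igfbp7* from 0 to 5.56 CPM and *Igf1r* from 0 to 3.44 CPM, all below the lowest library of cluster 3 (707, 21.5 and 14.6 CPM). *Insr* ranged from 4.46 to 16.7 CPM, with the highest value in cluster 9, the ML cluster with the fewest UMIs, where the mutant libraries together held 10 *Insr* UMIs.

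Within LP, cluster 2 is the one with proliferation markers. The summed level of 4 of them ran from 2065 to 2460 CPM there against 110 to 152 CPM in cluster 1. *Igfbp5* stood at 2256 and 2368 CPM in cluster 1 and at 674 and 674 CPM in cluster 2 of WT. In the mutant it stood at 2077 and 2166 CPM in cluster 1 and at 594 and 838 CPM in cluster 2. Cluster 2 was below cluster 1 in every library, by 3.44-fold in WT (log2 ratio −1.78, −1.86 to −1.70) and by 2.93-fold in the mutant (−1.55, −1.63 to −1.47). *Igf1r* stood at 42.3 and 41.9 CPM in cluster 1 and at 17.8 and 23.6 CPM in cluster 2 of WT, and at 48.2 and 33.0 CPM against 17.3 and 23.0 CPM in the mutant. This was 2.04-fold (log2 ratio −1.03, −1.54 to −0.55) and 1.96-fold lower (−0.97, −1.48 to −0.49), from 41 UMIs in cluster 2 of each genotype. *Igfbp7* was at 74.0 and 73.3 CPM against 52.5 and 49.2 CPM in WT, but the mutant libraries went in opposite directions, with 69.4 CPM against 39.0 in A and 61.5 CPM against 76.3 in B. *Insr* did not meet the rule in either genotype, and *Igfbp4* stood higher in cluster 2 of each library (3.96 to 9.22 CPM against 1.43 to 2.64) from 13 to 15 UMIs per cluster and genotype, too few for the rule.

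Of the 4 members with at least 50 UMIs, *Igfbp5* and *Igf1r* were thus called lower in cluster 2 in both genotypes and none higher. Over all genes 11% were called lower and 10.8% higher in WT, and 11.5% lower and 10.2% higher in the mutant. The summed luminal progenitor markers were also lower in cluster 2 (3340 to 3849 CPM against 5336 to 6099), and its cells held more UMIs (WT medians of 3490 and 1828). The part of these in the result was not tested.

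**Figure D3:**
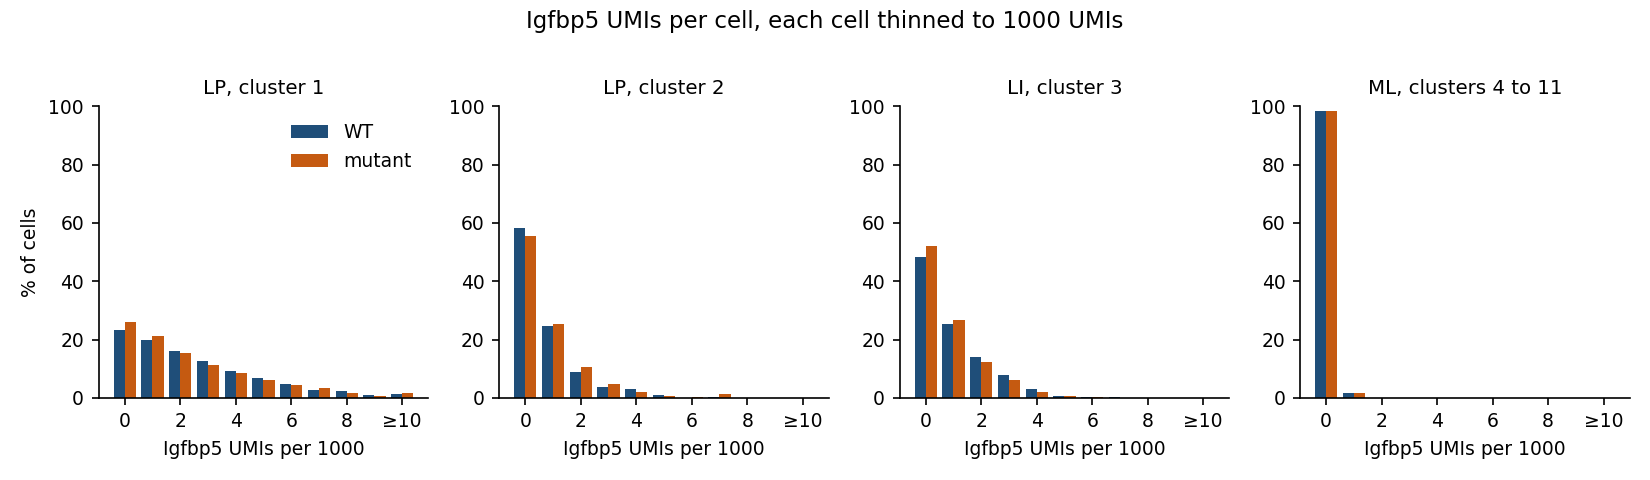
Share of cells (%) by their number of *Igfbp5* UMIs after each cell was thinned to 1000 UMIs, for WT and mutant cells of cluster 1, cluster 2, LI and ML. Most cells of cluster 1 hold at least 1 *Igfbp5* UMI (23.3% of WT cells are at 0), most cells of cluster 2 hold none (58.3%) and nearly all ML cells hold none (98.3%).

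The *Igfbp5* difference between clusters was seen at equal depth too. In cells thinned to 1000 UMIs, the mean was 2.45 and 2.59 *Igfbp5* UMIs in cluster 1 of WT and 2.29 and 2.44 in cluster 1 of the mutant. Cluster 2 had means of 0.745 and 0.714 for WT and of 0.748 and 0.870 for the mutant. LI had means of 1.01 and 0.953 for WT and of 0.848 and 0.791 for the mutant, so LI lay between the LP clusters in 3 libraries and below cluster 2 in mutant library B. *Igfbp5* varied among cells of cluster 1 by more than counting noise, with a variance of 2.43 (WT) and 2.53 (mutant) times the mean, where cells of 1 level would give about 1. The WT cells of cluster 1 ranged from 0 to 17 UMIs, with a median of 2 and a 90th percentile of 6.

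Cluster 12 held 43 WT and 33 mutant cells. By the marker list with most UMIs, 58 of these 76 cells carried endothelial and 18 carried fibroblast markers, and no macrophage marker had a UMI in the cluster. *Igfbp6* stood at 2541 and 2028 CPM in WT and at 2312 and 3861 CPM in mutant cluster 12. The cluster held 90.3% of all *Igfbp6* UMIs of WT cells and 92.0% of those of mutant cells. Within it, the 18 cells with fibroblast markers carried 468 *Igfbp6* UMIs (9389 CPM, 8558 to 10280) in 16 of the cells, and the 58 cells with endothelial markers carried 1.

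*Igfbp7* in cluster 12 followed the other cell type. The cells with endothelial markers stood at 3003 CPM (2715 to 3314) and 45 of 58 had a UMI, whereas the cells with fibroblast markers stood at 702 CPM (489 to 977) and 6 of 18 had one. By genotype, the former stood at 2556 CPM in WT and 3817 CPM in the mutant. The latter stood at 260 and 1221 CPM, both outside the pooled interval. These 76 cells held 20.7% of all *Igfbp7* UMIs of WT cells and 20.1% of those of mutant cells. Over the whole cluster *Igfbp7* stood at 1511 and 2344 CPM in WT and at 3363 and 2601 CPM in the mutant, 1.48-fold higher without overlap. In this cluster the summed endothelial markers (3264 to 3741 CPM in WT, 4792 to 6156 CPM in the mutant) and fibroblast markers (5273 to 7163 CPM in WT, 8949 to 14513 CPM in the mutant) were higher in the mutant as well. The mature luminal markers were lower there (1599 to 2299 CPM in WT, 356 to 360 CPM in the mutant). The part of these lists in the *Igfbp7* difference was not tested. *Igfbp4* was found in both kinds of cell, at 702 CPM with fibroblast and 295 CPM with endothelial markers. With fibroblast markers it stood at 632 CPM in WT and 785 CPM in the mutant, and with endothelial markers at 375 and 149 CPM. *Igf1*, the ligand, was found in 5 of 18 and 5 of 58 cells, at 161 CPM (69.3 to 316) and 37.8 CPM (12.3 to 88.3), with 8 and 5 UMIs. With fibroblast markers *Igf1* stood at 74.3 CPM in WT and 262 CPM in the mutant, and with endothelial markers at 23.4 and 64.0 CPM. Over the whole cluster *Igf1* stood at 21.9 and 45.1 CPM in the WT libraries, from 4 UMIs. The mutant libraries stood at 120 and 137 CPM, from 9 UMIs. *Igfbp3* had no UMI in library A of either genotype in cluster 12 and 7 and 12 UMIs in WT and mutant library B. All 12 *Igfbp3* UMIs of the cells with fibroblast markers came from 1 mutant cell, so that value describes this cell. *Igf1r* stood at 0 and 30.0 CPM in WT and at 90.1 and 82.1 CPM in mutant cluster 12, from 2 and 6 UMIs, and both mutant values lay above those of LP.

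*Igfbp5* in cluster 12 was at 1645 CPM (1308 to 2042) in cells with fibroblast markers and at 219 CPM (147 to 315) in cells with endothelial markers. These values pool the genotypes. With endothelial markers *Igfbp5* was at 317 CPM in WT and 42.6 CPM in the mutant, both outside the pooled interval. With fibroblast markers *Igfbp5* was at 1932 and 1309 CPM. In cluster 13 it was between 82.5 and 299 CPM over the 4 libraries, from 38 WT and 32 mutant UMIs. Luminal progenitor markers had UMIs in cluster 13 as well, at 0.549% to 22.2% of their LP level in WT. *Igfbp6* and *Igf1* had 0 UMIs in cluster 13, where 3 UMIs would be 11.2 CPM in WT and 12.7 CPM in the mutant.

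**Figure D4:**
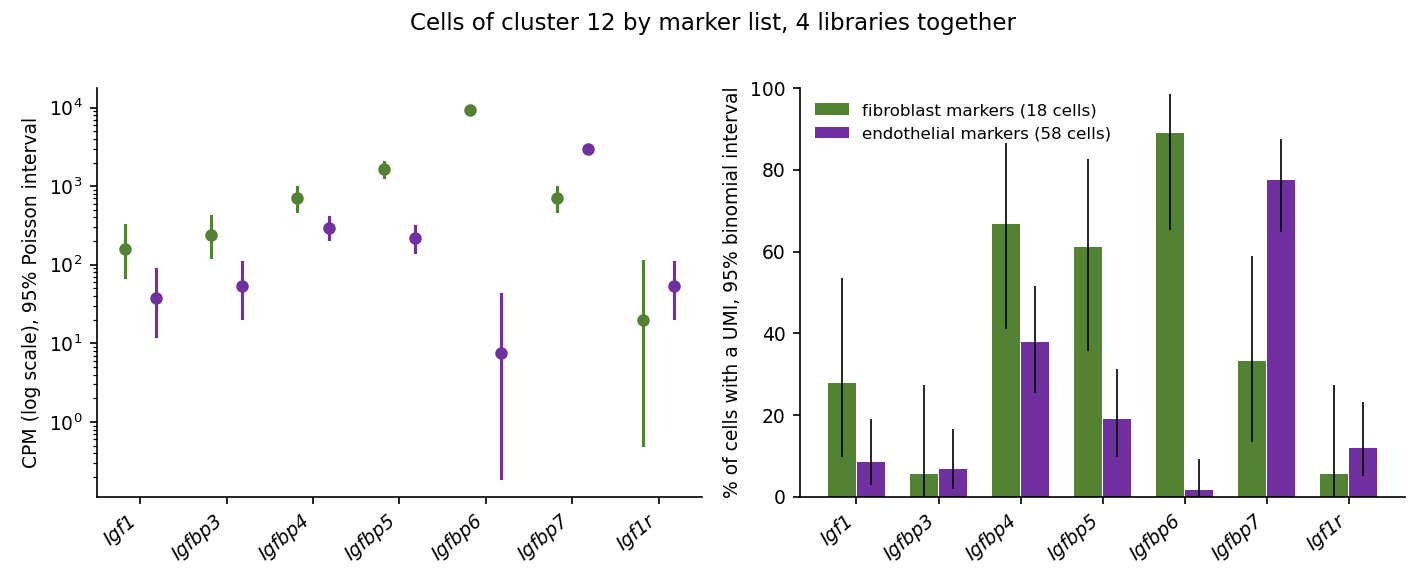
Cluster 12 cells of all 4 libraries, split by marker list into 18 cells with fibroblast and 58 with endothelial markers, showing the level (CPM, log scale, 95% Poisson interval) and the share of cells with a UMI (%, 95% binomial interval) of 7 IGF genes. *Igfbp6* stands at 9389 CPM against 7.56 CPM, and *Igfbp7* at 702 CPM against 3003 CPM.

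Between genotypes, a gene was called changed when its CPM differed by 1.5-fold or more, with at least 50 UMIs in the genotype with more and with both libraries of a genotype beyond both of the other. In LP, 4 members reached 50 UMIs and none was called, where 2.23% of 11219 genes were called higher and 0.606% lower in the mutant. In LI, 4 members reached 50 UMIs and none was called, against 2.83% higher and 1.03% lower of 10525 genes. In ML, 3 members reached it and none was called, against 2.86% higher and 1.57% lower of 15157 genes. In cluster 11, the ML cluster that held 15.4% of WT and 4.85% of mutant cells, 2 members reached it and none was called, against 2.7% higher and 3.17% lower of 10223 genes. With shares this low over all genes, 0 of 2 to 4 members is not a result about the members. For several genes, above and below, libraries of the genotypes are said not to overlap. The share of all genes for which this holds, whatever the fold, was not counted. Lack of overlap alone is therefore not read as an effect of genotype.

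Among members with at least 50 UMIs in LP, LI or ML, the largest difference in these classes was that of *Igfbp5* in LI. The WT libraries stood at 883 and 967 CPM and the mutant libraries at 722 and 707 CPM, so the genotypes did not overlap. The mutant level was 1.29-fold lower (log2 ratio −0.37, −0.42 to −0.32), under the 1.5-fold asked for. The summed luminal progenitor markers in LI moved with it, from 1745 to 1805 CPM over the WT libraries and from 1312 to 1446 CPM over the mutant libraries. Of these 6 markers *Csn3* (571 and 430 CPM), *Ltf* (513 and 353), *Cd14* (338 and 274), *Aldh1a3* (153 and 124) and *Elf5* (105 and 99.1) were lower in mutant LI, and *Kit* was not (93.9 and 97.1 CPM). In LI the mature luminal markers (5295 to 5374 CPM in WT, 5474 to 5723 CPM in the mutant) were higher in the mutant. So were the proliferation markers (80.3 to 103 CPM in WT, 145 to 161 CPM in the mutant). The basal and pericyte lists were also higher there without overlap. The cells of LI held more UMIs in the mutant, with medians of 6849.5 against 5620 in WT. The part of these lists and of depth in the *Igfbp5* difference was not tested. In LP the *Igfbp5* values met at WT library A and mutant library B (1860.1 and 1860.5 CPM), with a log2 ratio of −0.10 (−0.13 to −0.07). In ML the ratio was 0.03 (−0.11 to 0.16).

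The intervals of the other ratios contained 0. For *Igf1r* the log2 ratio was −0.07 in LP (−0.30 to 0.16) and −0.04 in LI (−0.40 to 0.33), and the genotypes overlapped in both. For *Igfbp7* it was −0.10 in LP (−0.27 to 0.07), where both mutant libraries lay below both WT libraries, and −0.05 in LI (−0.36 to 0.25). For *Insr* it was 0.12 in LP (−0.35 to 0.59), 0.12 in LI (−0.36 to 0.60) and 0.18 in ML (−0.04 to 0.40), and the mutant libraries lay above the WT libraries in LP and LI. In cluster 11 *Insr* was at 6.49 CPM in WT and 9.14 CPM in the mutant (0.49, −0.28 to 1.22), from 61 and 22 UMIs, but mutant libraries A and B stood at 13.9 and 5.26 CPM on either side of WT at 7.15 and 5.88 CPM. *Igfbp5* in cluster 11 was at a log2 ratio of −0.28 (−0.83 to 0.24), from 175 and 37 UMIs, and the libraries overlapped. These intervals leave room for differences of up to about 1.5-fold in *Insr* in LP and LI.

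Over all sorted cells together, *Igfbp7* stood at 14.4 and 15.3 CPM in the WT libraries and at 16.7 and 16.3 CPM in the mutant libraries (log2 ratio 0.15, 0.03 to 0.27), and *Insr* at 6.56 and 7.39 against 8.36 and 7.53 CPM (0.18, 0.00 to 0.36), without overlap for either gene. The libraries overlapped for *Igfbp5* (335 CPM in WT and 354 CPM in the mutant, log2 ratio 0.08, 0.05 to 0.11) and for *Igf1r* (6.75 and 7.58 CPM, log2 ratio 0.17, −0.02 to 0.35). The LP share was 17.1% among WT cells (interval 16.5% to 17.6%) and 22.6% among mutant cells (interval 21.9% to 23.3%). In sums over all cells, more cells of a class and more RNA per cell cannot be told apart.

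**Figure D5:**
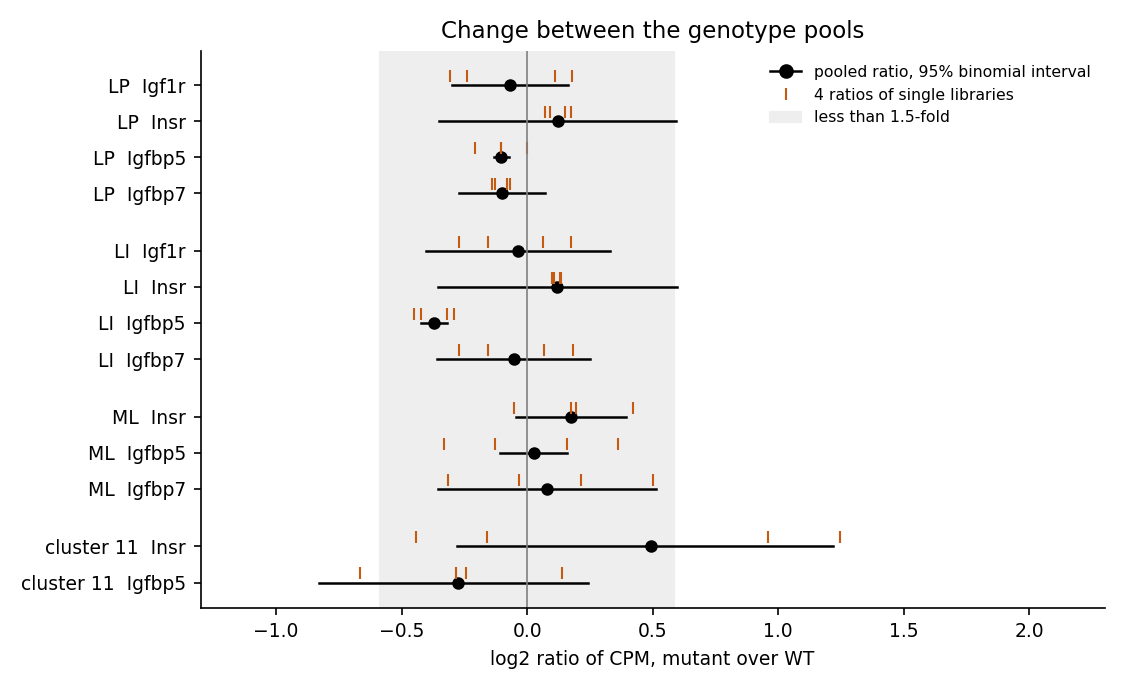
Log2 ratio of CPM, mutant over WT, for each member with at least 50 UMIs in LP, LI, ML or cluster 11, with the 95% binomial interval (line), the 4 ratios of single libraries (ticks) and the range under 1.5-fold (grey). All pooled ratios lie within the grey range, from −0.37 for *Igfbp5* in LI to 0.49 for *Insr* in cluster 11.

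A list of 36 further genes of the pathway was read the same way. Between genotypes, 0 of 22 with at least 50 UMIs were called in LP, 0 of 24 in LI and 0 of 26 in ML, with median log2 ratios of 0.01, 0.05 and 0.03 against 0.02, 0.00 and 0.00 over all genes. In cluster 11, 1 of 20 was called lower and none higher, beside 3.17% lower and 2.7% higher over all genes. This gene was *Igf2bp3*, which encodes a protein that binds *Igf2* mRNA. It stood there at 119 and 136 CPM in WT and at 71.5 and 77.4 CPM in the mutant, 1.71-fold lower (log2 ratio −0.78, −1.01 to −0.55). The same gene lay lower in both mutant libraries in ML (1.48-fold), LI (1.37-fold) and LP (1.21-fold), without meeting the rule there. *Igf2bp3* was not alone in such uncalled shifts, which went in both directions. As examples picked after the values were seen, *Irs1* lay higher (1.11-fold) and *Igfals* lower (1.41-fold) in both mutant libraries of LP. In both mutant libraries of LI, *Irs1* lay 1.24-fold higher and *Igfals* 1.24-fold lower. Summed over clusters 1 to 11, *Irs1* stood at 41.3 CPM in WT and 57.3 CPM in the mutant, and *Igfals* at 16.2 and 13.4 CPM.

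Between LP and ML, 7 of 27 pathway genes were called higher and 7 lower in LP in WT, and 6 of 26 higher and 8 lower in the mutant, with medians of −0.20 and −0.05 against 0.16 and 0.20 over all genes. Over all genes the called shares were 24.8% higher and 16.1% lower in WT and 26.3% higher and 15.7% lower in the mutant. Of the genes named for their level, *Stc2*, an inhibitor of a protease that cleaves IGF-binding proteins, stood at 162 CPM in WT LP and 923 CPM in WT ML. *Grb14*, an adaptor that inhibits the insulin receptor, stood at 24.1 CPM in LP and 122 CPM in ML, and *Ptpn1*, a phosphatase that acts on both receptors, at 94.6 and 260 CPM. *Pik3r1*, the regulatory subunit of PI3K, went the other way with 238 CPM in LP and 50.8 CPM in ML. *Irs2*, a docking protein of both receptors that is named here after its values were seen, stood at 46.8 CPM in LP and 2.77 CPM in ML. These 5 genes had the same direction in the mutant and met the rule there. *Igf2bp3*, also among the genes named for their level, stood at 63.4 CPM in WT LP and 89.5 CPM in WT ML and did not meet the rule. Between cluster 2 and cluster 1, 3 of 21 pathway genes were called higher and 5 lower in WT, and 3 higher and 3 lower in the mutant, beside 10.8% higher and 11% lower over all genes in WT and 10.2% and 11.5% in the mutant.

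For the 3 members with at least 500 UMIs in WT luminal cells, the genes with the most alike pattern were sought by Pearson's r of log2(CPM + 1) over the 11 luminal clusters, among 9825 genes. The points share their libraries and differ in depth, so r is a description. *Igfbp5* and *Igfbp7* are high in LP and LI and low in every ML cluster, so their r rests mainly on this split. Other genes with the same split would also reach a high r. For *Insr* some points rest on few UMIs, down to 6 in WT and 10 in mutant cells of cluster 9. For *Igfbp5* they were *Cst3* (r = 0.999 in WT, 0.995 in the mutant), a secreted protease inhibitor, *Trf* (0.997 and 0.994), the iron carrier transferrin, and *Gm20425* (0.997 and 0.989), which overlaps *Trf* on the same strand. For *Igfbp7* they were *Ogfrl1* (0.995 and 0.987), *3110079O15Rik* (0.995 and 0.969) and *Ptx3* (0.995 and 0.952), a secreted pattern recognition protein. For *Insr* they were *Impact* (0.881 and 0.447), *Arid1b* (0.875 and 0.676) and *Zmym2* (0.875 and 0.549). The genes were picked on the WT values, so a lower r in the mutant is not read as a difference between genotypes.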

How the data were processed

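Luminal cells of 1 WT and 1 mutant pool were profiled with the 10x Genomics 3′ kit as 2 libraries each. Per the labels, CASAVA 1.8, bcl2fastq 2.20 and GSNAP were used with GRCm38; cluster numbers and classes came from Partek Flow. The authors deposited a signal table, scaled by a factor that differed from cell to cell. Taking a cell's lowest value above 0 as 1 UMI turned 100% of 60853305 values above 0 into whole numbers (within 0.02), and these were used as UMIs. No cell was removed and doublets were not called. UMIs were summed per library and class and expressed as CPM. Levels have exact Poisson intervals, ratios exact conditional binomial intervals and shares exact (Clopper-Pearson) intervals. No model was fitted, as each genotype was 1 pool. Before shares of cells were compared, each cell was thinned to 1000 UMIs; 45 WT and 252 mutant cells were too shallow and were dropped from these shares. A cell of cluster 12 or 13 was given the marker list with most UMIs, at least 2 and no tie.

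The members and lists were chosen with earlier results of these data known. Pathway genes were named when called between genotypes or among the 5 highest in WT luminal cells, and 3 genes of alike pattern per member. The call rule and the intervals were tested on simulated counts that held counting error only, without spread between libraries, cells or pools. The alternatives left out single libraries, scaled by median of ratios, averaged over cells, used minimums of 20 and 100 UMIs, a lower and a higher fold or no rule on libraries, left out the 10% of cells with the fewest or the 5% with the most UMIs, and weighted clusters by WT shares. Python 3.11.15, numpy 2.4.6, pandas 2.3.3, scipy 1.17.1 and matplotlib 3.10.9 were used, with a seed of 1.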

Additional observations from a re-analysis of the deposited data

How the results depend on the processing

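The counts of members called between genotypes stayed at 0 under the alternatives run, with an exception in LI and another in cluster 11. At the lower of the other folds tried, 1 member was called between genotypes in LI, *Igfbp5*, lower in the mutant. In cluster 11 the count ran from 0 to 1 when each library was left out in turn: without mutant library B, *Insr* was called higher, and its log2 ratio of 0.49 ran from −0.30 to 1.10 over the alternatives. The count of 3 called between LP and ML became 4 in each genotype at that lower fold, where *Insr* was added. It also became 4 with a minimum of 20 UMIs, where *Igfbp4* was added instead. Of 159 values of single genes, 142 moved by less than the spread between libraries, 17 moved by more and 0 called values changed sign, while 18 uncalled ratios between genotypes did. That spread is the standard deviation of the ratios of single libraries. Leaving out 1 library can hardly move a ratio by more than that, so these alternatives add to the 142 without measuring stability. Scaling by the median of ratios shifted every LP over ML log2 ratio by −0.24 in WT and −0.27 in the mutant, which took *Insr* to 0.20 and 0.12. For *Igf1*, *Igf2*, *Igfbp2*, *Igfbp3*, *Igfbp4* and *Igfbp6* the UMIs of luminal cells limit what can be seen. No paired analysis was possible because the table does not give the replicate number of a library, and the result comes from no test.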
